A study of Saccharomyces cerevisiae with 4 samples.

Results

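The a-specific genes are the genes that budding yeast transcribes in cells of mating type a and keeps repressed in cells of mating type alpha. The 7 genes MFA1, MFA2, STE2, STE6, BAR1, ASG7 and AGA2 were taken by name from the 5449 genes of Saccharomyces cerevisiae measured, and each of the 7 was found, under 1 probe set of its own. They were followed in 4 strains on 1 Affymetrix array each. The tested strains carried a deletion of SIR2, of SIR3 or of SIR4, made by recombination with a KanMX gene, and the strain they were set against was wild-type BY4742, which is a haploid laboratory strain of the alpha mating type. The labels name BY4742 for the wild type alone and give no number of clones. All 4 strains were grown at 30 °C in rich medium, YPD, to exponential phase. With 1 array per strain no test could be run and no difference could be checked against replicates, so the number of arrays sets the limit on precision throughout.

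As background, the a-specific genes encode what an a cell needs to find and bind an alpha cell. In alpha cells the alpha2 protein binds their promoters with Mcm1 and recruits the Tup1 and Cyc8 corepressor, while in a cells, which lack alpha2, Mcm1 and Ste12 activate them. The Sir proteins keep the spare copies of the mating type genes, at HML and HMR, silent. An alpha strain without Sir proteins makes the a1 protein from HMR beside its alpha2 protein, and a1 and alpha2 together repress the haploid-specific genes and alpha1, the activator of the alpha-specific genes. The alpha2 protein is thus present before and after the loss of silencing.

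In these data the measured levels of the a-specific genes stayed within 2-fold of wild type in every deletion, while the alpha-specific and haploid-specific genes fell. All values are log2 levels per probe set, and differences are log2 differences of a deletion from wild type, with a gene called at a 2-fold difference, which is 1 on this scale. None of the 7 genes was called in the SIR2 deletion, the SIR3 deletion or the SIR4 deletion, where 2.86%, 2.40% and 1.45% of all 5449 genes were called. None of the 7 passed the limit the same way in every deletion, against 0.991% of all genes. At those shares most groups of 7 genes drawn from all genes would have none called, so this count does not set the 7 apart. The 21 differences of the 7 genes ran from -0.82 to 0.16, and 4 of them were at least 0.5 in size, the 3 of AGA2 and that of STE2 in the SIR3 deletion. AGA2 was below background in each deletion, and with values raised to background the differences ran from -0.56 to 0.16 and only that of STE2 was at least 0.5 in size. The medians over the 7 genes were -0.14, -0.30 and -0.05 in strains lacking SIR2, SIR3 and SIR4, beside medians of -0.00, -0.01 and 0.03 over all genes. Over the 453 genes with a mean level in the range of these 7, the medians were 0.04, -0.11 and 0.02. These are bulk cultures, in which fewer cells with a transcript and less of it per cell cannot be told apart, and all 3 deletions carry KanMX, whose effect cannot be told apart from that of the deletions.

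Marker genes of each cell type were read on each array. The 5 alpha-specific genes, which encode the alpha-factor pheromone, the a-factor receptor, an agglutinin and a factor that binds a-factor, averaged 6.82, 6.34 and 6.94 in strains lacking SIR2, SIR3 and SIR4 and 13.4 in wild type. HMRA1, the a1 gene of HMR, had levels of 9.38, 9.01 and 9.80 in the deletions and lay below background, at 2.87, in wild type. The 12 haploid-specific genes averaged 6.45, 6.28 and 6.52 in the deletions and 10.3 in wild type. The 7 a-specific genes averaged 5.81, 5.63 and 5.89 in the deletions and 5.99 in wild type. The series holds no array of an a cell, so the level that these 7 probe sets reach when the genes are fully active is not known here.

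A level has meaning only above the signal of a probe set without a target. That background was taken for each array as the 95th percentile of the 1746 probe sets for Schizosaccharomyces pombe, a distant yeast whose genes share the array design, and it was 4.32, 4.39 and 4.28 in strains lacking SIR2, SIR3 and SIR4 and 4.29 in wild type. Of the 7 a-specific genes, 6 lay above it in each deletion and 7 in wild type. At the 99th percentile, which was 5.50, 5.48 and 5.27 in the deletions and 5.34 in wild type, 4 of the 7 lay above it on every array, namely MFA1, STE2, STE6 and BAR1. None of these 1746 probe sets differed 2-fold from wild type in any deletion, and their median SD over the 4 arrays was 0.14, with a median range of 0.31. That SD is the only gauge of scatter between arrays used here, and it applies to dim probe sets. It describes values of single arrays, and a difference between arrays scatters more, so a difference above it can still be array scatter. Of the 21 differences of the a-specific genes, 9 were smaller than it.

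**Figure D1:**
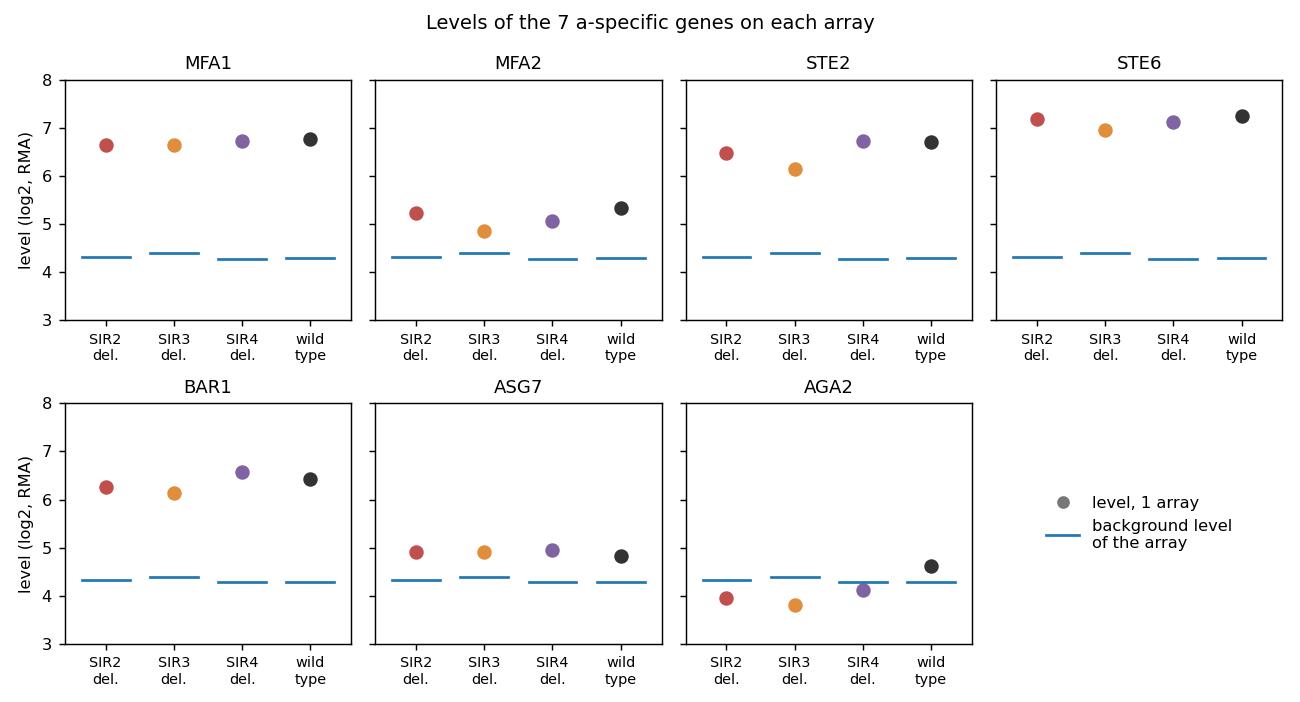
Level of each a-specific gene (vertical axis, log2) on the arrays of the SIR2, SIR3 and SIR4 deletions and the wild type (horizontal axis). Each point is 1 array and each blue line is the background level of that array. AGA2 is the gene whose points lie below the line in all 3 deletions and above it, at 4.63, in wild type, and ASG7 and MFA2 lie less than 1.04 above it on every array.

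The pheromone genes of the a cell are MFA1 and MFA2, which each encode a precursor of a-factor, a short peptide that is released with a lipid attached. MFA1 (YDR461W) had levels of 6.63, 6.65 and 6.73 in strains lacking SIR2, SIR3 and SIR4 and 6.78 in wild type. Wild type was the highest of the 4 and the whole range was 0.14, under the median range of the background probe sets, 0.31. Each step between neighbouring arrays was smaller than the background SD. The differences of MFA1 from wild type were -0.14, -0.13 and -0.05, or 0.91-fold, 0.92-fold and 0.97-fold. Against this, 71.7% of the 453 genes with a mean level between those of the lowest and the highest a-specific gene differed at least as much in the SIR2 deletion. Of all genes 61.6% did.

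MFA2 (YNL145W) lay near background. Its levels were 5.23, 4.86 and 5.05 in strains lacking SIR2, SIR3 and SIR4 and 5.33 in wild type, which is 0.91, 0.47 and 0.77 above background in the deletions and 1.04 in wild type. The SIR3 deletion was lowest, followed by the SIR4 deletion, the SIR2 deletion and wild type, and the last gap, of 0.10, was smaller than the background SD. The difference in the SIR3 deletion was -0.47, or 0.72-fold, and 29.1% of genes of similar level differed at least as much there. Of all genes 9.27% did. In the other deletions the differences were -0.10 and -0.27. Both genes encode nearly the same pheromone, and neither reached the 2-fold limit in any deletion.

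STE6 encodes the transporter that exports a-factor from the cell. STE6 (YKL209C) had levels of 7.19, 6.95 and 7.13 in strains lacking SIR2, SIR3 and SIR4 and 7.25 in wild type. It lay 2.56 to 2.96 above background on the 4 arrays, so a 2-fold fall would have stayed above background. It differed by -0.06, -0.30 and -0.13, which is 0.96-fold, 0.81-fold and 0.92-fold. Only the SIR3 deletion differed from wild type by more than the background SD, and 49.9% of genes of similar level differed at least as much in that deletion. STE6 has the highest mean level of the members, so no gene of that group had a higher mean level. Over all genes the share was 21.5%.

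STE2 encodes the receptor by which an a cell senses alpha-factor. STE2 (YFL026W) had levels of 6.47, 6.14 and 6.72 in strains lacking SIR2, SIR3 and SIR4 and 6.71 in wild type. The SIR4 deletion and wild type stood 0.01 apart at the top, and the SIR2 and SIR3 deletions followed below. Its difference of -0.56 in the SIR3 deletion, or 0.68-fold, was the largest of any a-specific gene that stayed above background. Among genes of similar level 24.7% differed at least as much in the SIR3 deletion, and over all genes 6.94% did. The SIR2 deletion differed by -0.23.

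BAR1 encodes a secreted protease that cleaves alpha-factor and so lets an a cell recover from the signal. BAR1 (YIL015W) had levels of 6.27, 6.13 and 6.58 in strains lacking SIR2, SIR3 and SIR4 and 6.42 in wild type. It was the member with the largest difference above wild type, 0.16 in the SIR4 deletion, beside -0.15 and -0.29 in the SIR2 and SIR3 deletions. Each step in the order from the SIR3 deletion through the SIR2 deletion and wild type to the SIR4 deletion was 0.14 to 0.16, about the background SD.

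ASG7 encodes a membrane protein that damps pheromone signalling after mating by acting on the G protein subunit Ste4. ASG7 (YJL170C) had levels of 4.90, 4.90 and 4.95 in strains lacking SIR2, SIR3 and SIR4 and 4.83 in wild type. It was the 1 member that lay above wild type in all 3 deletions, by 0.07, 0.07 and 0.12, a pattern that 24.8% of all genes had. Its range of 0.12 over the 4 arrays was the smallest of the 7 and under the median range of the background probe sets, 0.31. ASG7 lay only 0.51 to 0.67 above background.

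AGA2 encodes the part of a-agglutinin that binds the alpha cell during mating, and Aga1 holds it on the cell wall. AGA2 (YGL032C) had levels of 3.95, 3.80 and 4.11 in strains lacking SIR2, SIR3 and SIR4 and 4.63 in wild type. The 3 deletions were all below background and wild type lay 0.34 above it, so the deletions have only a bound. Wild type stood 0.52 above the nearest deletion, the widest such gap of the 7 genes. If the wild-type level is taken as signal, AGA2 was at least 1.24-fold, 1.18-fold and 1.27-fold lower in strains lacking SIR2, SIR3 and SIR4. These bounds come from the wild-type level and the background level of each deletion array. At the 99th percentile of background, 5.34 in wild type, AGA2 lay below background on every array and no fall could be bounded. The measured differences were -0.68, -0.82 and -0.52, and 16.8%, 11.7% and 19.6% of genes of similar level differed at least as much. At a limit of 1.5-fold AGA2 was the 1 member lower in the SIR2 deletion and the 1 member lower in the SIR3 deletion, where 5.07% and 3.78% of all genes were lower, and none was in the SIR4 deletion, where 2.09% were. With values raised to background it passed the 1.5-fold limit in no deletion.

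Seen together, small differences below wild type were more frequent than differences above it. Below wild type by any amount were 6, 6 and 4 of the 7 genes in strains lacking SIR2, SIR3 and SIR4, beside 45.3%, 60.5% and 46.1% of genes of similar level. MFA1, MFA2, STE6 and AGA2, 4 of the 7, were below it in all 3 deletions, against 20.9% of all genes and 25.4% of genes of similar level. When quantile normalization was repeated over the probe sets of Saccharomyces cerevisiae, MFA1 was at 0.03 in the SIR3 deletion, and 3 genes were below wild type in all 3. The 3 comparisons share the wild-type array, so a high reading on that array alone would put a gene below it in all of them. Counting only differences larger than the background SD left 1 gene, AGA2, and that SD is smaller than the scatter of a difference between arrays.

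The SIR3 deletion gave the lowest of the 4 levels for MFA2, STE2, STE6, BAR1 and AGA2, 5 of the 7, where 23.7% of all genes were lowest. AGA2 was below background in all 3 deletions, so its order among them has no meaning, and of the 6 genes above background on every array 4 were lowest there. Among genes of similar level 40.2% were lowest there, and 39.9% of the 436 genes with a wild-type level in the members' range were. After repeated quantile normalization 4 of the 7 genes and 23.6% of genes of similar level were lowest in the SIR3 deletion, and with each array centred on its median 6 of the 7 and 40.4% were. The background level of the SIR3 array was also the highest of the 4. At the 99th percentile that of the SIR2 array was higher, at 5.50 against 5.48. The part of the array itself in these low readings was not tested.

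Between the deletions the 7 genes were also within 2-fold. None was called between the SIR2 and SIR3 deletions, between the SIR2 and SIR4 deletions or between the SIR3 and SIR4 deletions, where 1.05%, 1.65% and 1.27% of all genes were. At those shares too, most groups of 7 genes would have none called. The largest differences were those of STE2 and BAR1 between the SIR3 and SIR4 deletions, at -0.58 and -0.45. MFA2 differed by 0.37 between the SIR2 and SIR3 deletions. MFA1 and ASG7 differed by less than 0.1 in each of the 3 pairs.

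The 7 genes were set against the 453 genes whose mean level lay between 4.12 and 7.13, the range of the members' own means. The 453 include the 7 themselves. In that group 9.49%, 8.61% and 5.96% were called in strains lacking SIR2, SIR3 and SIR4, a share that includes genes placed in the group by their own fall, among them 1 alpha-specific and 4 haploid-specific genes. Among the 436 genes grouped by wild-type level instead, 8.03%, 6.88% and 3.44% were called, which is also above the shares of all genes. The median range over the 4 arrays was 0.55 for the 453 genes, and 2 of the 7 a-specific genes, STE2 and AGA2, had a wider one. That of AGA2 was wider only by values below background, since raised to background its range was 0.35. The median size of the difference from wild type was 0.14, 0.30 and 0.13 for the a-specific genes in strains lacking SIR2, SIR3 and SIR4 and 0.27, 0.30 and 0.22 for the genes of similar level.

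**Figure D2:**
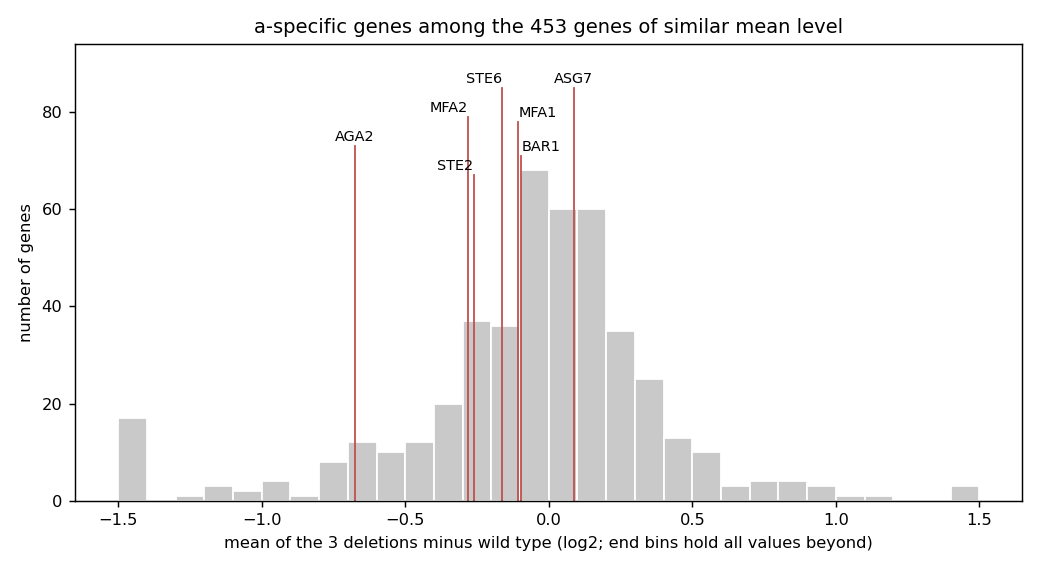
Number of genes (vertical axis) by the mean difference of the 3 deletions from wild type (horizontal axis, log2) among the 453 genes of similar mean level, with red lines at the 7 a-specific genes. AGA2, below background in the deletions, lies at -0.67 and the other members between -0.28 and 0.09, inside the main body of the grey bars. The end bars hold all genes beyond the axis.

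Some genes outside the 7 came as near to the members' mean profile over the 4 arrays as the members did. Distance was measured between levels centred on each gene's mean. Of the 446 other genes of similar level, 172 lay nearer to the mean profile of the a-specific genes than AGA2, the farthest member. Nearer than the median member were 35 of them, or 7.85%, and 7 lay nearer than STE6, the nearest. The members make up the mean profile, which draws them towards it. These counts therefore cannot decide whether the profile is particular to them. The 3 nearest genes were YCL001W-A, GAS4 and PUG1, at distances of 0.0701, 0.0856 and 0.0861 over 4 arrays, where the members lay at 0.12 to 0.40. These distances use the values as deposited, and GAS4 and YCL001W-A, like AGA2, were below background in at least 1 deletion. PUG1, above background on every array, differed from wild type by -0.29, -0.41 and -0.10 in strains lacking SIR2, SIR3 and SIR4.

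Among the mating genes of the other classes the falls were large. The 5 alpha-specific genes were called lower in all 3 deletions, with medians of -5.62, -7.53 and -5.69. Their smallest fall, that of SAG1 in the SIR2 deletion at -4.17, was farther from 0 than any difference of an a-specific gene. Of the 12 haploid-specific genes 12, 12 and 11 were called lower in strains lacking SIR2, SIR3 and SIR4 and none higher, with medians of -3.44, -3.77 and -3.87. Of all 5449 genes, 77, 91 and 60 were called lower in these deletions, and 42 in all 3. Both lists were chosen with earlier results of these data known, so their counts are a description. FAR1, which arrests the cell cycle for mating, was below background in each deletion, with bounds of -6.65, -6.59 and -6.70, and HO, the endonuclease that switches mating type, differed by -5.83, -6.03 and -5.84. Nearest to wild type by the mean over the 3 deletions were STE12, the pheromone transcription factor, and RDH54, a recombination gene, the second at -2.34, -2.15 and -2.18. The wild-type levels of these genes stood far above background, so they had room to fall that ASG7, AGA2 and MFA2 did not have.

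**Figure D3:**
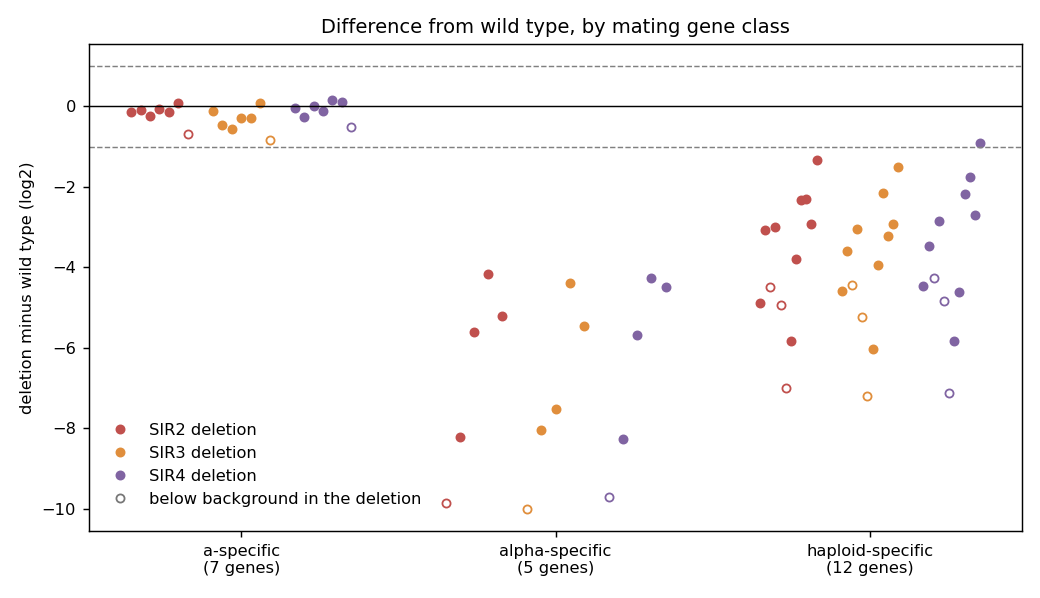
Difference of each deletion from wild type (vertical axis, log2) for the 7 a-specific, 5 alpha-specific and 12 haploid-specific genes (horizontal axis), 1 point per gene and deletion, with dashed lines at a 2-fold difference. The a-specific genes lie between -0.82 and 0.16, and each alpha-specific gene lies at or below -4.17. Open points are genes below background in that deletion, for which the true difference has only a bound.

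The proteins that the a-specific products act on or with were mostly encoded by genes that fell. A list of 10 such partners was described, and all 10 were called lower in all 3 deletions, beside 42 of all 5449 genes. The list shares 5 genes with the alpha-specific and 3 with the haploid-specific list, so most of this count repeats the falls given above. It was chosen with earlier results of these data known. AGA1, which anchors Aga2, was at 9.33, 8.95 and 9.18 in strains lacking SIR2, SIR3 and SIR4 and 11.6 in wild type, a difference of -2.24, -2.63 and -2.39. SAG1, the agglutinin of the alpha cell to which Aga2 binds, differed by -4.17, -4.39 and -4.27. STE3, the receptor for a-factor, was at 7.10, 5.19 and 7.03 in the deletions and 12.7 in wild type.

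The same held for the ligand and the G protein. MF(ALPHA)2, a gene for the alpha-factor that Ste2 senses and Bar1 cleaves, differed by -8.21, -8.06 and -8.27. MF(ALPHA)1, the other gene for it, was below background in each deletion, and the differences with values raised to background were -8.91, -8.84 and -8.95, which are bounds. AFB1, a factor that binds a-factor, differed by -5.22, -5.46 and -4.49. STE4, whose product Asg7 acts on, differed by -3.08, -3.59 and -3.48, and GPA1 by -4.88, -4.59 and -4.47. STE18, the third G protein gene, was below background in each deletion, and its bounds were -3.94, -3.87 and -3.98. SST2, which turns the G protein off, differed by -3.28, -3.47 and -2.53.

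The enzymes that mature a-factor did not move as a group. Of 7 genes, STE14 and AXL1 were called lower in all 3 deletions and none was called higher, with list medians of -0.16, -0.31 and -0.30. Of all 5449 genes, 42 were called lower in all 3. STE14, which methylates the end of a-factor, was at 9.36, 9.42 and 9.31 in strains lacking SIR2, SIR3 and SIR4 and 11.1 in wild type. AXL1, a protease that trims the precursor and also one of the haploid-specific genes, differed by -2.92, -2.93 and -2.71. RAM1 and RAM2, which attach the lipid, differed by -0.16, -0.42 and -0.30 and by -0.29, -0.31 and -0.47. RCE1 and STE24, which cut the precursor, differed by 0.05, 0.03 and 0.17 and by 0.35, 0.20 and 0.09. STE23, a protease related to Axl1, differed by 0.15, 0.01 and -0.02.

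None of 10 listed genes for regulators of a-specific transcription was called in any deletion, with medians of 0.10, 0.16 and 0.10 in strains lacking SIR2, SIR3 and SIR4. Of all genes 2.86%, 2.40% and 1.45% were called there, and at those shares most groups of 10 genes would have none called. MCM1, which binds the a-specific promoters in both haploid cell types, was at 10.5, 11.0 and 10.8 in the deletions and 10.6 in wild type. TUP1 and CYC8, the corepressor genes, differed by 0.28, 0.25 and -0.00 and by 0.08, 0.18 and 0.09. The histone deacetylase genes HDA1 and RPD3 differed by -0.11, -0.05 and -0.14 and by 0.12, 0.07 and -0.07. The mediator genes SRB8, SSN2, SSN3, SSN8 and GAL11, some of which take part in repression with Tup1, had mean differences of -0.10 for SSN3 to 0.28 for SSN8. STE12, the other activator of the a-specific genes, was counted with the haploid-specific genes and not in this list, and it differed by -1.34, -1.52 and -0.92 in strains lacking SIR2, SIR3 and SIR4, called lower without SIR2 and without SIR3.

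The repressor alpha2 itself was not measured under its own name. Of 6 genes of MAT and the silent loci 3 had a named probe set, HMLALPHA1, HMRA1 and HMRA2. HMRA2 carries the same sequence as the end of the alpha2 gene, and its probe set is of a class shared between similar sequences. That probe set read 10.6, 10.8 and 10.9 in strains lacking SIR2, SIR3 and SIR4 and 11.1 in wild type, a difference of -0.50, -0.34 and -0.29. HMLALPHA1, whose probe set is also shared and includes alpha1 of MAT, was called lower, at -4.70, -4.93 and -4.59. HMRA1 was called higher, and with the wild-type value raised to background its differences were 5.09, 4.72 and 5.51, which are bounds.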

How the data were processed

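Total RNA of 4 strains was labelled as cRNA and hybridised to 1 array each. The deposited log2 values, 1 per probe set and array, came from RMA run by the authors, as the submitters' processing notes state, with version and settings not given in the sources used. RMA makes the arrays' distributions alike, so a shift of all genes would not be seen. Of 10928 probe sets, 5498 matched 5449 genes by gene identifier between the platform annotation and the R64 reference table; the brightest probe set stood for a gene with several. A probe set named ste6 belongs to Schizosaccharomyces pombe and was left out of the a-specific genes. No a-specific probe set is of the classes that match several sequences, and no annotated gene overlaps these 7 genes.

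Differences of each deletion from wild type were computed with pandas 2.3.3 (Python 3.11.15), with genes called at 2-fold. The calling step was tested on simulated data in which every added difference was well above the 2-fold limit. That test does not cover differences as small as those of the a-specific genes. Samples were grouped by the labels. Named were all a-specific genes, all partners and regulators, and, of each other list, the 2 highest and 2 lowest by mean difference, plus the 3 genes nearest in profile. Any further gene was picked with its values in view. The genes and lists were chosen with earlier results of these data known. Alternatives were other fold limits, scalings, background percentiles, probe set summaries and leaving out each deletion. Levels of different probe sets depend on their sequences, and comparisons between probe sets carry that limit. Such comparisons were made to group genes of similar signal, to set levels against background and to average levels over a list.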

Additional observations from a re-analysis of the deposited data

How the results depend on the processing

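No a-specific gene was called at 3-fold, with arrays centred on their median or quantile-normalized again, with values raised to the 95th or 99th percentile of background, or with the mean of a gene's probe sets. At 1.5-fold the count was 1 in the SIR2 deletion and 1 in the SIR3 deletion, both AGA2. The median difference in the SIR3 deletion was -0.15 with quantile normalization repeated, and the other medians moved by less than the background SD. The mean difference of AGA2 was -0.30 with values raised to background, which shortens any fall below it. Leaving out 1 deletion at a time, the mean difference of STE2 ran from -0.40 without the SIR4 deletion to -0.11 without the SIR3 deletion, and that of BAR1 from -0.22 to 0.0033 over the same omissions. In wild type 4 genes lay above the 99th percentile of background. The count below wild type in all 3 deletions was 1 when only differences over the background SD were counted; that alternative, the other scalings for this count, centring on the other yeast's probe sets and grouping genes by wild-type level were chosen after seeing the data. The planned search of promoters for the alpha2 and Mcm1 operator was not run, since no promoter sequence was used here. No paired analysis was possible because each strain had 1 array. Signal over background limits AGA2, ASG7 and MFA2, which lay 0.34, 0.54 and 1.04 above background in wild type, so that a 2-fold fall would have reached or nearly reached it.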

Other observations

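The genes that mating pheromone induces lay between the other classes. Of 15, which include AGA1 and SST2, 7, 8 and 7 were called lower in strains lacking SIR2, SIR3 and SIR4 and none higher, with medians of -0.81, -1.21 and -0.57. Of all 5449 genes, 77, 91 and 60 were called lower in these deletions. FUS1, which acts in cell fusion, differed by -4.23, -5.21 and -3.73, and PRM1, which acts in fusion of the membranes, by -1.76, -2.21 and -1.80. FUS2 differed by 0.42, -0.07 and 0.15, and CIK1, a partner of a kinesin in nuclear fusion, by -0.32, -0.29 and -0.02. FIG1 was called lower in the SIR3 and SIR4 deletions, where it was below background, and with values raised to background it was called in the SIR4 deletion alone.

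The probe set for ste6 of Schizosaccharomyces pombe, which shares only its name with the transporter gene, read 3.06, 2.93 and 3.22 in strains lacking SIR2, SIR3 and SIR4 and 3.02 in wild type, below background on all 4 arrays. The STE6 probe set read 6.95 to 7.25. The ASG7 probe set gave the same level, to 4 decimals, in the SIR2 and SIR3 deletions.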
